A study of Homo sapiens with 4 samples.

Results

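EIF5 and 6 further genes whose products set how strictly a human ribosome chooses its start codon were followed in U87 glioblastoma cells with and without carnosine. The 7 genes were EIF5, EIF1, EIF1B, EIF1AX, EIF5B, BZW1 and BZW2, taken by symbol from a deposited table of 58219 genes, and all 7 were among the 16340 genes with enough counts to be tested. EIF5 was selected on its counts in this same contrast, because they were much lower with carnosine, so its values are a description without a test. The other 6 were chosen for their role, though with earlier results of these data known, and their contrast was tested.

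U87 is a single established human glioblastoma line, and carnosine is a dipeptide of beta-alanine and histidine. The carnosine group comprised 2 libraries of cells kept for 24 h in fresh medium with 50 mM carnosine. The control group comprised 2 libraries of cells kept for 24 h in fresh medium with 0 mM carnosine. Both groups were grown in the same high-glucose medium without pyruvate, and nothing in the labels says that libraries of a group came from separate cultures, so p-values measure only the spread between these libraries, which may be technical. Ribosomal RNA was depleted, and the remaining total RNA was sequenced.

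During initiation a 43S preinitiation complex, the small ribosomal subunit with eIF1, eIF1A, eIF3, eIF5 and the eIF2, GTP and initiator tRNA complex, scans the messenger RNA for a start codon. eIF1 and eIF1A hold the complex in a state that can scan and keep it from stopping at poor codons, whereas eIF5 makes eIF2 hydrolyse its GTP and favours recognition, including at codons in a poor sequence context. EIF1 and EIF5 messages themselves carry start codons or upstream reading frames in poor context, through which each protein can adjust its own synthesis.

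The start codon surroundings of the 7 genes are shown because the sequence around the AUG is what these factors read. Each sequence runs 5′ to 3′ from 9 bases before the start codon to 1 base after it, from GENCODE 29 transcripts on GRCh38. Capitals mark the base at position -3, the ATG and the base at position +4, counted from the A of the ATG as +1.
EIF5: taagccAaaATGT
EIF1: tcgtatCgtATGT
EIF1B: tagtatCgcATGT
EIF1AX: gccaccGccATGC
EIF5B: tgacaaGcaATGG
BZW1: ggcgggCggATGT
BZW2: agaaatTttATGA

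A context is called strong here when it has a purine at -3 and G at +4, weak when it has neither, and intermediate otherwise. By this definition 4 of the 7 genes, EIF1, EIF1B, BZW1 and BZW2, had a weak context, against 6.91% of 18014 human genes with an annotated start and leader. EIF5 and EIF1AX were intermediate, a class that held 50.5% of those genes. EIF5B alone was strong, like 42.6% of them. The classes are a description of the reference sequence and say nothing of the cells studied.

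The EIF5 start codon lies at chromosome 14 position 103335861 on the plus strand, in the same context in all 3 transcripts used. Their 5′ leaders are 676, 533 and 912 bases long and hold 6, 5 and 18 upstream ATGs, while the median leader of the 18014 genes is 195 bases long with 1 upstream ATG. Some upstream ATGs of the 533-base and 912-base leaders have a strong context, such as that at position 103335045, which both leaders hold. The pair of upstream ATGs shared by the 3 leaders is shown with the same capitals. Both of that pair have a pyrimidine at -3 and no G at +4.
EIF5 upstream ATG 122 bases before the start codon: aattttTtcATGT
EIF5 upstream ATG 90 bases before the start codon: cagtcgTttATGT

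The first, at position 103335739, opens a frame of 61 codons that runs past the EIF5 start codon out of frame. The second, at position 103335771, opens a frame of 22 codons that ends before it. Elsewhere in the set, upstream ATGs were counted in the representative leaders of EIF5B and BZW2, with 2 each, and 0 in those of EIF1, EIF1B, EIF1AX and BZW1. The 3 BZW1 transcripts used start at different codons, of which the one printed, at chromosome 2 position 200812408, and one other are weak and the remaining one is strong.

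The 4 libraries were deep, with 57728762 and 51632970 counts in carnosine libraries 1 and 2, against 71766267 and 59155538 in control libraries 1 and 2. Levels are given as CPM, a gene's counts brought to a common library total after TMM scaling, so that libraries of different depth can be compared. VIM and CD44, which mark mesenchymal glioblastoma cells, were abundant, with lowest values of 5581 CPM with carnosine and 7042 CPM in controls for VIM, and of 1317 CPM with carnosine and 1107 CPM in controls for CD44. The neural progenitor marker NES had 23.7 and 35.6 CPM with carnosine, against 30.7 and 44.0 CPM in controls. The astroglial marker GFAP and the neural stem and progenitor marker SOX2 were near 0, with at most 0.278 CPM for GFAP and 2 counts over all libraries for SOX2. Of 5 markers of other cell types, RBFOX3 had 0 counts in the 4 libraries, PTPRC, MBP and CDH1 stayed at or below 0.136 CPM, and the endothelial marker PECAM1 had 6.07 and 5.26 CPM with carnosine, against 2.08 and 2.61 CPM in controls. PECAM1 was called higher with carnosine (log2 fold change 1.28, edgeR quasi-likelihood F test, adjusted p = 0.0215 over all genes tested). Which cells of the culture held its RNA cannot be told, and its part in the results was not tested.

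EIF5 (ENSG00000100664.10, chromosome 14, 103333544 to 103345025, plus strand), which encodes the GTPase-activating protein of eIF2, had 80.0 and 70.8 CPM in the carnosine libraries, against 293 and 283 CPM in the control libraries. Both carnosine libraries lay far below both control libraries, and the gap between the groups was many times the spread within either. The means were 75.4 ± 6.46 CPM with carnosine and 288 ± 6.97 CPM in controls (SD, n = 2 each). The log2 fold change was -1.93 ± 0.11 (SE), so the carnosine level was 26.2% of the control level, or 3.82-fold lower. In counts as deposited these were 4811 and 3568 with carnosine and 20814 and 16597 in controls, so counting error is small beside the difference. In RNA of a whole culture, less EIF5 RNA per cell and fewer cells with the RNA cannot be told apart.

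EIF5 stood out for combining a high level with a large difference. Its log2 fold change had rank 46 from the lowest among the 16340 genes tested, and rank 8 among the 11967 genes with a mean count of at least 100. Among the 951 genes with at least its own mean count, EIF5 included, 0 had a lower value, and the next were AKAP12 at -0.93 and YARS at -0.89. By level in CPM it was gene 3051 from the top with carnosine, against gene 550 in controls. Since EIF5 was picked for this contrast, these ranks are a description.

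**Figure D1:**
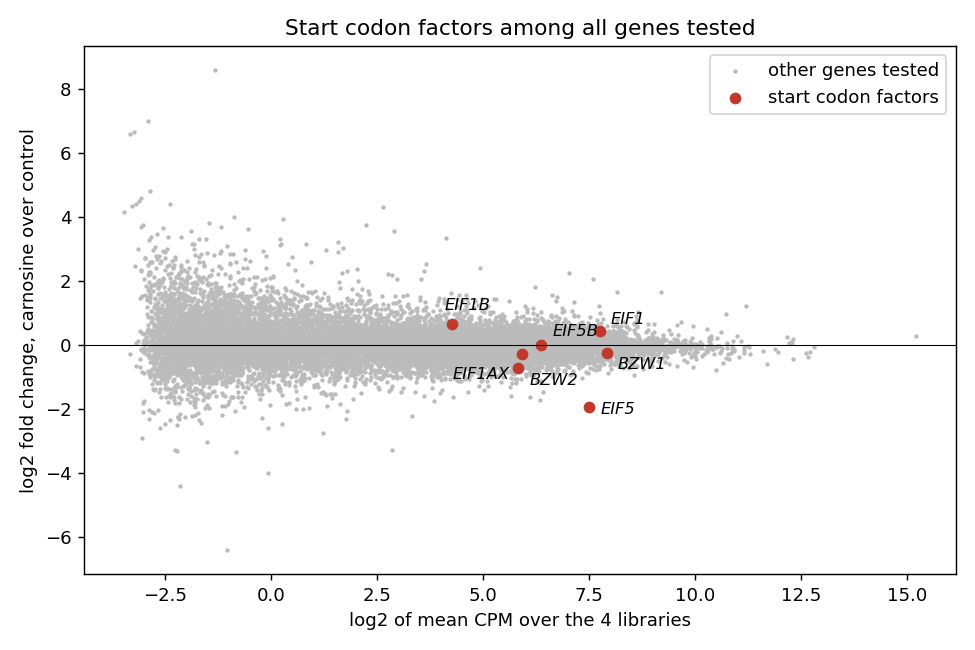
Log2 fold change (carnosine over control) of every gene tested against the log2 of its mean CPM over the 4 libraries, with the 7 start codon factors in red. EIF5 is at -1.93, and 0 genes with at least its mean count lie lower, while the other 6 lie between -0.73 and 0.64.

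Among the other 6 genes, EIF1B rose, BZW2 fell, and EIF1, EIF1AX, EIF5B and BZW1 did not pass the test (edgeR quasi-likelihood F test, two-sided, Benjamini-Hochberg adjusted p under 0.05 over all genes tested). That is 1 higher, 1 lower and 4 not called, where 8.31% of all genes tested were called, 3.95% higher and 4.36% lower. The carnosine and control libraries did not overlap for 5 of the 6, with EIF1 and EIF1B higher and EIF1AX, BZW1 and BZW2 lower, against 56.5% of all genes tested. With 6 genes, these counts are only a description.

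**Figure D2:**
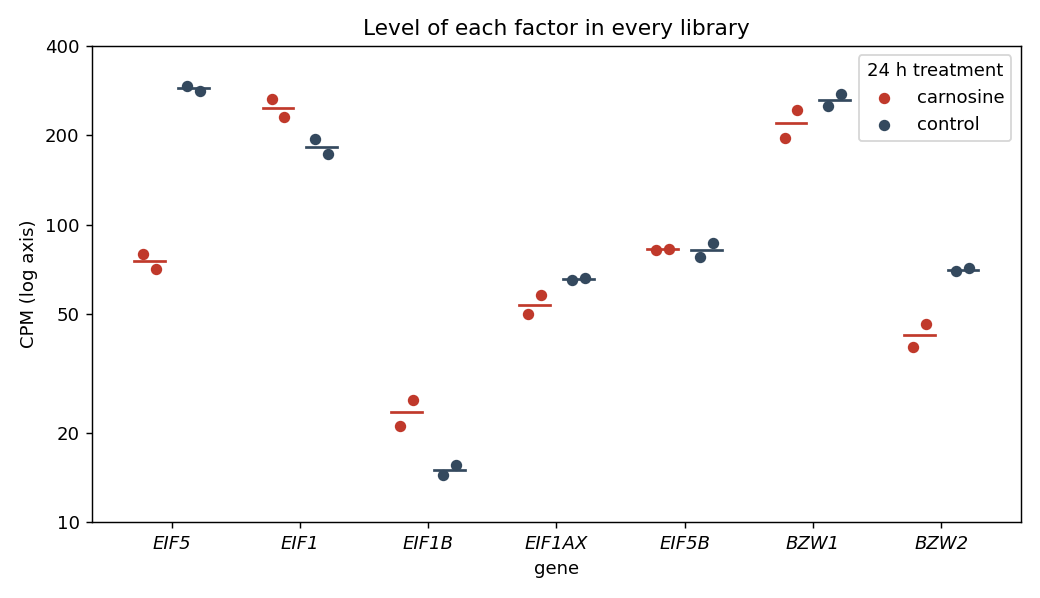
CPM (log axis) of the 7 genes in each library, carnosine in red left of control in dark, with points for libraries and bars for group means. EIF5 has 80.0 and 70.8 CPM with carnosine against 293 and 283 CPM in controls, and EIF5B is the gene whose groups overlap.

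EIF1 (ENSG00000173812.10, chromosome 17, 41688885 to 41692668, plus strand) encodes eIF1, the factor that works against eIF5 in start codon recognition. It had 264 and 230 CPM in the carnosine libraries, against 194 and 173 CPM in the control libraries. The groups did not overlap, with both carnosine values above both control values. The means were 247 ± 24.2 CPM with carnosine and 183 ± 15.4 CPM in controls (SD, n = 2 each), and the log2 fold change of 0.43 ± 0.12 (SE) did not pass the test (edgeR adjusted p = 0.0753). Its 95% interval ran from 0.14 to 0.72 without adjustment for the number of genes. With the replicate number as a block, a pairing the labels do not name, EIF1 passed (edgeR adjusted p = 1.25e-05). That block called 5767 of the 16340 genes tested. EIF1 passed with DESeq2 (adjusted p = 0.0184), without the filter on low counts (0.0111) and without carnosine replicate 2 (0.0374). It did not pass without carnosine replicate 1 (edgeR adjusted p = 0.177), control replicate 1 (0.172) or control replicate 2 (0.406).

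EIF1B (ENSG00000114784.3, chromosome 3, 40309684 to 40312424, plus strand) encodes a close relative of eIF1. It had 21.0 and 25.8 CPM in the carnosine libraries, against 14.4 and 15.6 CPM in the control libraries, with no overlap. It rose with carnosine, with means of 23.4 ± 3.41 CPM, against 15.0 ± 0.865 CPM in controls (SD, n = 2 each), which is 1.56-fold or 0.64 ± 0.14 (SE) on the log2 scale (edgeR adjusted p = 0.0392). The call rested on single libraries: the adjusted p was 0.140 without control replicate 1, 0.0829 without control replicate 2 and 0.0715 without carnosine replicate 2, with log2 fold changes of 0.58, 0.70 and 0.48. The longest run of bases that EIF1 and EIF1B transcripts share is 25 bases, short against the reads, so the counts of the pair can be told apart.

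EIF1AX (ENSG00000173674.10, chromosome X, 20124518 to 20141844, minus strand) encodes eIF1A, which works with eIF1 during scanning. It had 50.0 and 57.9 CPM with carnosine, against 65.5 and 66.1 CPM in controls. Both carnosine libraries were below both control libraries, but they differed from each other by about as much as the higher of them did from the nearer control. The means were 54.0 ± 5.63 CPM with carnosine and 65.8 ± 0.417 CPM in controls (SD, n = 2 each), and the log2 fold change of -0.29 ± 0.11 (SE) did not pass (edgeR adjusted p = 0.140). EIF1AX passed only with the replicate number as a block (edgeR adjusted p = 0.00165), where 5767 of 16340 genes were called.

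EIF5B (ENSG00000158417.10, chromosome 2, 99337353 to 99401326, plus strand) encodes the GTPase that acts after start codon recognition, when the ribosomal subunits join; despite its name it is unrelated to the eIF2-activating protein. It had 82.4 and 82.9 CPM with carnosine, against 78.1 and 86.8 CPM in controls. The carnosine values lay between the control values. The log2 fold change was 0.004 ± 0.10 (SE; edgeR adjusted p = 0.986), and its 95% interval, 0.851-fold to 1.18-fold, leaves room for changes of that size in either direction.

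BZW1 and BZW2 encode proteins with the C-terminal W2 domain of eIF5 but without its GTPase-activating part. They are also called eIF5-mimic proteins because they can take the place of eIF5 on eIF2 and eIF3 and make start codon choice stricter. BZW2 (ENSG00000136261.14, chromosome 7, 16646131 to 16706523, plus strand) had 38.8 and 46.3 CPM with carnosine, against 69.7 and 71.9 CPM in controls. The groups were well apart, and BZW2 fell with carnosine to 42.6 ± 5.26 CPM, against 70.8 ± 1.52 CPM in controls (SD, n = 2 each). Its log2 fold change was -0.73 ± 0.11 (SE), or 1.66-fold lower (edgeR adjusted p = 0.0182). It passed the test under each of the 12 other settings tried, with log2 fold changes from -0.87 to -0.62.

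BZW1 (ENSG00000082153.17, chromosome 2, 200810594 to 200827338, plus strand) had 195 and 244 CPM with carnosine, against 251 and 275 CPM in controls. Carnosine library 2 came close to control library 1, although the groups did not overlap. The log2 fold change of -0.26 ± 0.14 (SE) did not pass (edgeR adjusted p = 0.276), with a 95% interval from -0.58 to 0.06. BZW1 passed only with the replicate number as a block (edgeR adjusted p = 0.0111), where 5767 of 16340 genes were called. That BZW2 passed without the block and BZW1 did not is not a test of a difference between them.

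Levels of different genes were compared as CPM per kb of exonic bases, since a longer gene collects more reads. With carnosine the mean levels per kb were 68.2 for EIF1, 27.2 for BZW1, 12.3 for EIF1B, 12.2 for EIF1AX, 11.6 for BZW2, 10.5 for EIF5B and 8.86 for EIF5. In controls they were 50.6 for EIF1, 33.8 for EIF5, 32.5 for BZW1, 19.3 for BZW2, 14.9 for EIF1AX, 10.5 for EIF5B and 7.84 for EIF1B. EIF5 thus took place 7 of 7 with carnosine and place 2 of 7 in controls, where its libraries, at 34.4 and 33.2, overlapped those of BZW1, at 31.0 and 34.0. With carnosine, EIF1B, EIF1AX and BZW2 overlapped one another. Per kb of the longest coding transcript EIF5 was again at place 2 in controls but at place 6 with carnosine, at 12.7, where its libraries overlapped those of EIF1AX, at 12.2.

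Ratios between genes within a library do not depend on how libraries are scaled. EIF5 over EIF1, both as CPM per kb, was 0.129 and 0.131 in the carnosine libraries, against 0.641 and 0.698 in the control libraries. The values of each group lay close together and far from the other group, and the carnosine mean was 0.130 ± 0.0016, against 0.670 ± 0.040 in controls (SD, n = 2 each), so that the control mean was 5.15 times as high. Counting EIF1B with EIF1 gave 0.112 and 0.108 with carnosine, against 0.563 and 0.596 in controls.

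EIF5 over EIF5B was 0.899 and 0.792 with carnosine, against 3.47 and 3.02 in controls. The sum of BZW1 and BZW2 over EIF5 was 3.70 and 5.14 with carnosine, against 1.46 and 1.61 in controls. The mimic sum was therefore a larger multiple of EIF5 with carnosine, 4.42 ± 1.02 against 1.53 ± 0.112 in controls (SD, n = 2 each), although BZW2 itself fell. EIF5 is part of every ratio, so none is independent of the difference for which it was chosen, and none was tested.

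**Figure D3:**
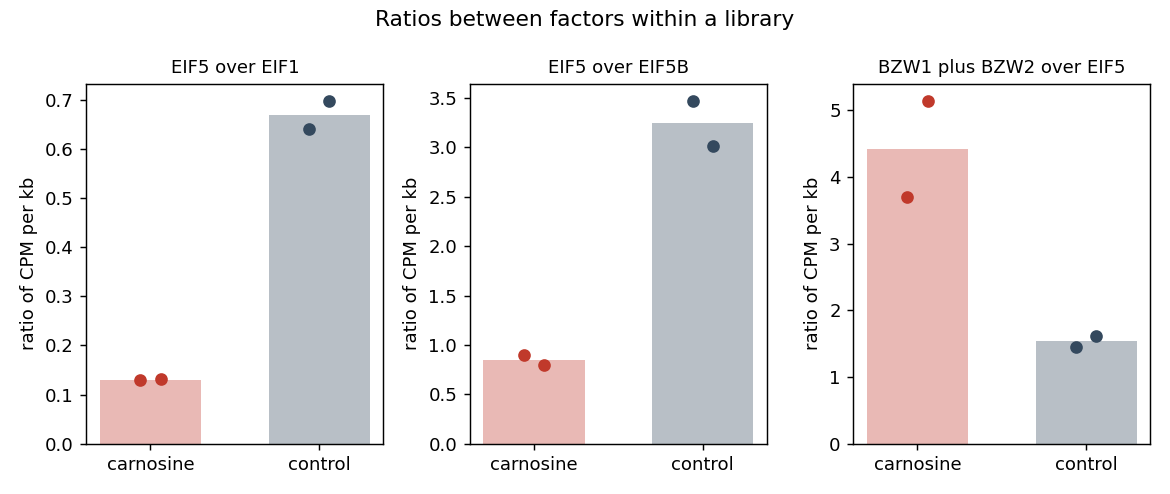
Ratios of CPM per kb within each library for EIF5 over EIF1, EIF5 over EIF5B, and BZW1 plus BZW2 over EIF5, carnosine left of control, with points for libraries and bars for means. The first pair of ratios is lower in both carnosine libraries than in both controls, and the third is higher.

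The EIF5 gene has 21 annotated transcripts, of which 10 are coding and 8 retain an intron, and gene counts cannot tell them apart. Of 101-base windows of its longest coding transcript, 0.137% occur in transcripts of another gene, the pseudogene EIF5P1, which had 1 and 0 counts with carnosine and 3 and 0 counts in controls. Counts of EIF5B are less certain, as 13.2% of its windows occur in REV1 on the opposite strand, and so are those of BZW1. Of the 6775 windows of its longest transcript used, 723 occur in BZW1P2 and 107 in the antisense gene AC007163.1, 12.3% together. In its shorter representative transcript 52.7% of windows occur in BZW1P2. For EIF1AX the share was 4.65%, with EIF1AXP1, for BZW2 2.33%, with an antisense gene, for EIF1 0.493%, with EIF1P3, and for EIF1B 0. REV1 itself had 33.7 and 35.1 CPM with carnosine, against 33.5 and 35.8 CPM in controls, and its groups overlapped. Whether strand was used in counting is not stated in the sources at hand, so reads of a gene and of an antisense neighbour cannot be told apart.

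Of 13 pseudogene rows named after the 7 genes, 9 had no count in any library, and BZW1P1 had 1 count in a single library. EIF1AXP1 had 4.22 and 5.34 CPM with carnosine, against 5.78 and 5.76 CPM in controls (log2 fold change -0.27 ± 0.19, SE; edgeR adjusted p = 0.402). BZW1P2 had 1.58 and 2.02 CPM with carnosine, against 2.02 and 2.15 CPM in controls (-0.21 ± 0.26; edgeR adjusted p = 0.653). Neither passed the test. SNORA28, a small nucleolar RNA in an intron of EIF5, had 0 and 3 counts with carnosine and 11 and 2 counts in controls, too few to be tested, and the groups overlapped.

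Of the 3 nearest counted genes on each side, 0 of 6 passed the test with edgeR, DESeq2 or limma-voom. Of all genes tested 8.31% were called with edgeR, so 0 of 6 is only a description. Also 0 had an unadjusted edgeR p under 0.05, a share that was not computed for all genes. MARK3, a kinase gene that starts 40.4 kb downstream, had 102 and 103 CPM with carnosine, against 89.3 and 93.2 CPM in controls, a log2 fold change of 0.17 ± 0.09 (SE; edgeR adjusted p = 0.308). The upstream kinase gene CDC42BPB was at -0.11 ± 0.13 (edgeR adjusted p = 0.625), TNFAIP2 at 0.17 ± 0.28 (0.739), the creatine kinase gene CKB at 0.42 ± 0.26 (0.353) and ENSG00000260285 at 0.24 ± 0.21 (0.506).

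The value nearest to that of EIF5 belonged to ENSG00000259775, an antisense gene 1.18 kb upstream, with 3 and 9 counts with carnosine and 15 and 15 counts in controls. Its log2 fold change of -1.05 ± 0.72 (SE) did not pass (edgeR adjusted p = 0.398). Within 1000 kb on each side, 23 genes were tested and 2 were called, a share close to the 8.31% of all genes tested. ANKRD9 rose (log2 fold change 0.68, edgeR adjusted p = 0.0144), CINP fell (-0.43, edgeR adjusted p = 0.0425), and the median of the 23 was 0.17. ANKRD9 and CINP were named after their values were seen.

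**Figure D4:**
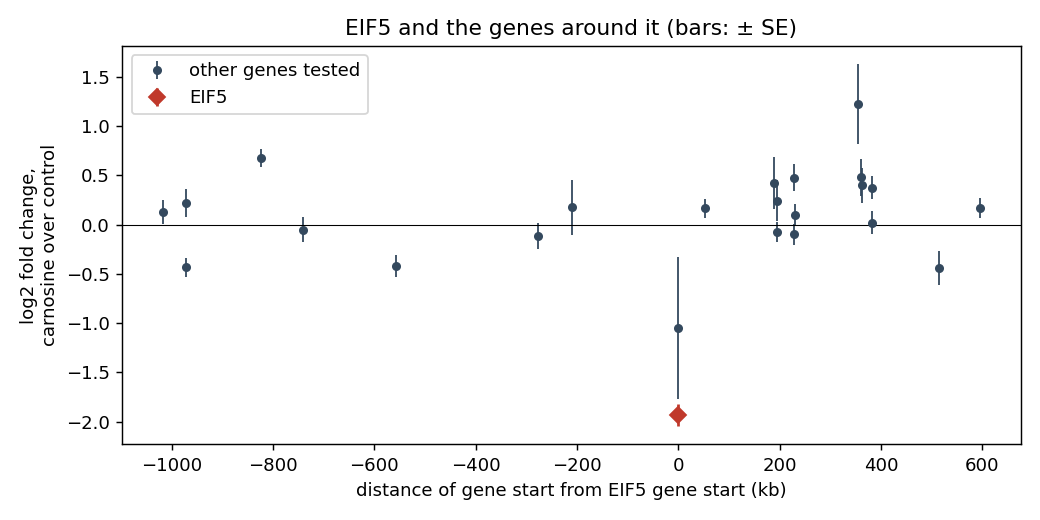
Log2 fold change (carnosine over control, bars ± SE) of EIF5 and the 23 genes tested within 1000 kb on each side, against the distance of each gene start from that of EIF5 in kb. EIF5, at -1.93, lies below all 23, whose median is 0.17. Since EIF5 was picked for its fall, its place below them is a description.

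The other initiation factors were described as 6 lists of 43 genes in all. Over the 43, 4 fell, 0 rose and 39 did not pass, a share called of 9.30%. Of all genes tested 8.31% were called, 4.36% lower and 3.95% higher. The median log2 fold change of the 43 was -0.16, against 0.0009 for all genes. The log2 fold change was below 0 in 34 of the 43, where 8149 of all 16340 genes tested were below 0. This lean depended on scaling and libraries. It was 30 of the 43 with total counts only, and 26 without carnosine replicate 1, with a median of -0.09. The libraries did not overlap for 28 of the 43, of which 23 were lower and 5 higher with carnosine. Of all genes tested 56.5% did not overlap, 28.8% lower and 27.8% higher. The largest fall of the 43, that of EIF3J, was a log2 fold change of -0.56, against -1.93 for EIF5.

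eIF2 carries the initiator tRNA, and eIF2B, which reloads it with GTP, works against the hold that eIF5 has on eIF2. The list held their subunits and CDC123, an assembly factor of eIF2 that is a subunit of neither. Of these 9 genes 2 fell and 0 rose, a share called of 22.2%, where 4.36% of all genes tested fell. All 9 were below 0, where 8149 of all 16340 genes tested were, and the median was -0.20. With 9 genes, these counts are only a description. EIF2B3, the gamma subunit of eIF2B, had 36.4 and 35.1 CPM with carnosine, against 53.9 and 49.0 CPM in controls, and fell by 0.53 ± 0.10 (SE) on the log2 scale (edgeR adjusted p = 0.0289). EIF2B1, the alpha subunit, had 51.7 and 54.6 CPM with carnosine, against 72.9 and 69.1 CPM in controls, and fell by 0.42 ± 0.09 (edgeR adjusted p = 0.0435), a call that ended when libraries were scaled by total counts only (0.0509). Their common direction rested partly on scaling and libraries: 8 of the 9 were below 0 with upper-quartile scaling, 7 with total counts only and 7 without carnosine replicate 1. EIF2B1 shares 536 exonic bases with DDX55 on the opposite strand, and EIF2B3 shares 347 with a pseudogene there.

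Of the 13 eIF3 subunits, which form the scaffold of the scanning complex and bind eIF5, 1 fell and 0 rose, a share called of 7.69%. Of all genes tested 4.36% fell, and 8149 of 16340 were below 0. All 13 subunits were below 0, with a median of -0.22. This was 13 of 13 under each scaling, but 10 without carnosine replicate 1 and 12 without control replicate 2. EIF3J, the loosely bound subunit, had 39.2 and 38.7 CPM with carnosine, against 55.1 and 59.7 CPM in controls, and fell by 0.56 ± 0.10 (SE) on the log2 scale (edgeR adjusted p = 0.0224). Of 5 genes of reinitiation and ribosome recycling, 1 fell and 0 rose, with a median of -0.29. That gene was EIF2D, which can release and place tRNA on the small subunit without GTP, at 57.3 and 52.3 CPM with carnosine, against 79.0 and 80.6 CPM in controls (log2 fold change -0.54 ± 0.10, SE; edgeR adjusted p = 0.0251).

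The calls of EIF2B3, EIF2B1, EIF3J and EIF2D rested on few libraries: 3 list genes were called without carnosine replicate 1, 10 without carnosine replicate 2, 1 without control replicate 1 and 0 without control replicate 2. The count of all genes called moved too, from 505 without control replicate 2 and 635 without control replicate 1 to 1595 without carnosine replicate 2, where 1358 were called with all libraries.

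Among 6 genes of eIF2alpha kinases and phosphatase subunits, which tune eIF2 in stress, 0 were called with edgeR, DESeq2 or limma-voom. Of all genes tested 8.31% were called with edgeR, so 0 of 6 is only a description. The median was 0.15, and 2 had an unadjusted edgeR p under 0.05, both above 0. The share of all genes at that unadjusted p was not computed. With the replicate number as a block, EIF2AK3 and PPP1R15B were called higher, where 5767 of 16340 genes were called. The pair with the most counts were EIF2AK4, at 0.09 ± 0.11 (SE; edgeR adjusted p = 0.623), and EIF2AK1, at 0.14 ± 0.10 (0.452). Among 9 genes of cap binding and scanning, 0 were called with the 3 tools, also only a description, and the median was -0.01. Here 2 had an unadjusted edgeR p under 0.05, both below 0, and with the block 2 were called lower and 2 higher. EIF4G1, the cap-complex scaffold, was at -0.19 ± 0.12 (edgeR adjusted p = 0.364), and EIF4B, a helper of the helicase, at 0.05 ± 0.12 (0.847).

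Besides BZW1 and BZW2, 4 list genes carry a W2 domain like that of eIF5: EIF2B5, EIF4G1, EIF4G2 and EIF4G3. Of these 0 were called with the 3 tools, where 8.31% of all genes tested were called with edgeR. With 4 genes, this count is only a description. In this list 0 had an unadjusted edgeR p under 0.05, and the median was -0.13. With the replicate number as a block, EIF4G3 was called higher. EIF4G2, which acts in cap-independent initiation, had 969 and 977 CPM with carnosine, against 1160 and 1098 CPM in controls (log2 fold change -0.21 ± 0.11, SE; edgeR adjusted p = 0.281). The low-level counts of EIF4A1 and EIF3C are uncertain, since their reads can also be assigned to overlapping or near-identical genes.

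**Figure D5:**
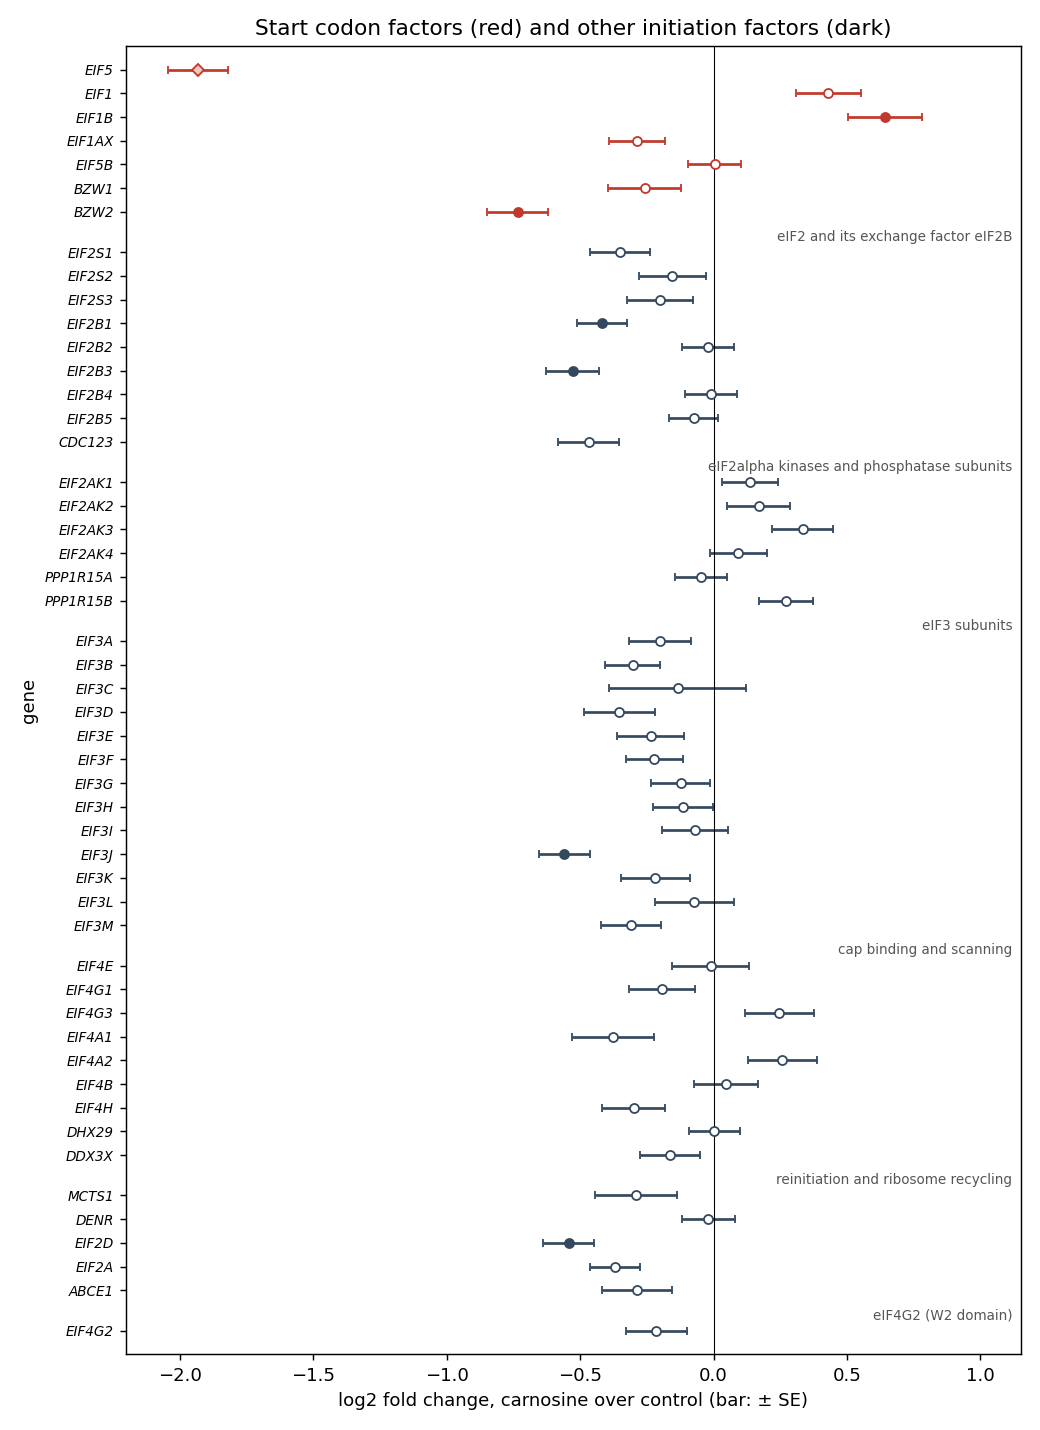
Log2 fold change (carnosine over control, bars ± SE) of the 7 start codon factors in red and the 43 other initiation factors by list in dark. Filled circles are genes past the test and open circles are the rest. The pale diamond is EIF5, given without a test result because it was picked for its fall. EIF5 is at -1.93, and the other initiation factors lie between -0.56 and 0.33.

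The genes whose log2 CPM profile over the 4 libraries lay nearest to that of EIF5, each centred on its own mean, were named by the smallest root mean square difference among 11415 other genes. These had a mean count of at least 100 and were named other than by a clone, an Ensembl identifier or a LINC number. NOP56, which belongs to the core of box C/D small nucleolar particles, was nearest at 0.122, with 39.5 and 36.1 CPM with carnosine, against 120 and 128 CPM in controls. SP2-AS1 followed at 0.156, LTBP2, a latent TGF-beta binding protein gene, at 0.181, the pseudogene RPSAP52 at 0.198 and AP4M1, an adaptor complex subunit gene, at 0.233. Their log2 fold changes were -1.72, -1.65, -1.58, -2.21 and -1.47. With 4 libraries, likeness mostly restates the difference between the groups.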

How the data were processed

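The authors deposited raw counts per gene for 4 libraries, whole numbers without normalization. The submitters' processing notes name the genome build hg38 and the tools HTSeq 0.6.1, HISAT2 2.1.0 and bcl2fastq 2.17.0. Not given in the sources used here are the annotation release, the strand setting and the handling of multiply matching reads. Multiply matching reads bear on BZW1, and strand on EIF5B. Per the labels' protocols, stranded total RNA libraries were sequenced as paired 101-base reads, 4 libraries pooled on a single flow cell. The table held 0 columns of other samples, and 32116 of its genes had no count.

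Genes were filtered with filterByExpr (a minimum count of 10 in 2 libraries, a total of 15), which kept 16340 genes with at least 99.96% of each library's counts. They were tested with edgeR 4.0.16 in R 4.3.3 (TMM scaling, quasi-likelihood F test, group only, 2 residual degrees of freedom). P-values were adjusted by Benjamini-Hochberg over the genes tested, with a threshold of 0.05. The fit was tried on a single simulated data set, with libraries drawn independently and far fewer changed genes than the 1358 called here. Of 121 edgeR calls there 8.26% were false, against a threshold of 0.05, and a single draw cannot show that the threshold is exceeded. The false share and the recovery depend on these settings and need not hold for the data. There edgeR recovered 25.4% of the 1.5-fold changes put in, 61.5% of the 2-fold and 83.1% of the 4-fold. Small changes can therefore be missed, and calls near the threshold are uncertain. The biological coefficient of variation was 0.141. The SE given with log2 fold changes is approximate, their size over the square root of F. limma 3.58.1 (voom), DESeq2 1.42.0, other scalings and filters, a block and leaving out each library served as alternatives. Coordinates, exonic lengths, overlaps and start codon contexts come from GENCODE 29 (GRCh38). Windows of 101 bases were searched in all its transcripts.

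The genes and lists were chosen with earlier results of these data known. Named besides the 7 genes were their pseudogenes, SNORA28, up to 4 called genes per list by size of change or else the 2 with the most counts, the 3 neighbours on each side, and the 5 nearest profiles.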

Additional observations from a re-analysis of the deposited data

How the results depend on the processing

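EIF5 was at a log2 fold change between -1.93 and -1.90 under the other scalings, filters and tools and between -2.02 and -1.85 when 1 library was left out. With all libraries 1358 genes, 2 of the other 6 start codon factors (EIF1B and BZW2) and 4 list genes were called. Without the filter on low counts these were 3145, 3 and 8, and with DESeq2 2187, 3 and 6, EIF1 being the added factor. Leaving out 1 library gave 505 to 1595 genes, 1 to 2 factors and 0 to 10 list genes; where an arm then had 1 library, it was assumed to vary like the other. With the replicate number as a block, 5767 genes, 5 factors (all but EIF5B) and 21 list genes were called. Libraries of the same number deviated together (r = 0.55 over 11967 genes), but there are only 2 pairs and the labels name no shared batch, so they share only a number. Leaving out 1 library also turned the sign of TNFAIP2 (-0.17 to 0.61, -0.15 without carnosine replicate 1), EIF4B (-0.060 to 0.14) and EIF5B (-0.075 to 0.078, -0.005 without carnosine replicate 2), none of them called; the cause was not tested. Per kb of the longest coding transcript, EIF5 over EIF1 was 0.120 with carnosine and 0.616 in controls, and over EIF1 plus EIF1B 0.0980 and 0.518. The limits are 2 libraries a group of unknown independence, gene counts that do not resolve transcripts, and RNA levels that do not measure protein or start codon use.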
